A study of Rattus norvegicus with 16 samples.

Results

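A set of 10 genes of insulin signalling and glucose uptake was followed in epididymal fat of young rats. They are the glucose transporters Slc2a4 (GLUT4) and Slc2a1 (GLUT1), the insulin receptor Insr, the adaptors Irs1 and Irs2, the regulatory phosphoinositide kinase subunit Pik3r1, the kinase Akt2, the hexokinases Hk1 and Hk2, and the pyruvate dehydrogenase kinase Pdk4. They were chosen by symbol, as 10 of the 15168 genes that the array's RefSeq accessions named, and were covered by 12 probes. Insr and Irs1 had 2 probes each and the other 8 genes had 1 each. A gene is described by its probe of higher mean signal. All 12 probes were well above background on all 16 arrays.

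In an adipocyte, insulin binds its receptor, which phosphorylates the IRS adaptors. These recruit the phosphoinositide kinase, and through it AKT2 sends stored GLUT4 to the cell surface, where glucose enters. GLUT1 gives basal uptake, hexokinases trap the sugar as glucose phosphate, and PDK4 restrains the entry of pyruvate into the citric acid cycle when fat is burned instead. Much of this control acts on protein location and phosphorylation, which an RNA array does not measure.

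The tissue was the epididymal white fat pad of male offspring, killed at 30 days of age with free access to food. Dams of both groups, mated at 11 weeks of age, ate a diet of 5.24 kcal per g rich in fat while pregnant and nursing, and their sons stayed on that diet after weaning at day 21. In the HF group the dams were given low-fat condensed milk as vehicle. In the HFT group the milk carried a daily 25 mg per kg of GSPE, the study's name for its grape seed extract. Each group held 8 animals, 1 array each, and an animal is named by its group and label number. Which animals were littermates was not given in the sources used here, so the p-values treat every animal as independent. In a whole fat pad, fewer cells of a type and less RNA per cell cannot be told apart.

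The 16 arrays lay on 4 slides, each with 2 HF and 2 HFT animals. HF animals were always at positions 1 and 2 and HFT animals at 3 and 4, so group and position cannot be told apart. The 75th percentile of signal ran from 753 on HF 10 to 1366 on HFT 28, and 68.3% to 73.4% of probes were well above background. Markers of other tissues were present on some pads. A list score, the median over a list of each gene's distance from its median array, exceeded 3 log2 units for epididymal duct genes on HF 8, HFT 23 and HFT 28 and for urothelial genes on HF 35, HFT 22 and HFT 24. These 6 arrays are set apart below from the 10 that were high for neither. Among the 10, hepatocyte genes scored 3.67 on HF 10 and 3.02 on HFT 36, and smooth muscle genes 4.05 on HF 9. The label of fat was checked against 11 adipocyte markers. All were well above background on all 16 arrays, among them the adiponectin gene Adipoq at 6.31 to 7.23 log2 units above the 75th percentile. This list was not used to tell white fat from other fat. The adipocyte score stayed between -0.61 (HFT 28) and 0.24 (HF 10).

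The promoter windows of 4 genes are shown. These genes belong to the 5 pairs, given below, that passed by both Pearson's r and Spearman's rho across animals. Irs1, Pik3r1 and Slc2a1 were in pairs that passed by r alone, and their windows are not printed. Each is the 250 bases before the RefSeq start of the gene in build GRCr8, 5′ to 3′ on the gene's own strand. RefSeq windows were matched for 8 of the 10 genes; those of Slc2a4 and Irs2 were not. Insr lies at chr12:6128804-6129053 on the minus strand, Hk2 at chr4:116841276-116841525 on the minus strand, Akt2 at chr1:92021667-92021916 on the plus strand and Pdk4 at chr4:34568330-34568579 on the minus strand. Capitals mark matches, on either strand, to short motifs: a FOXO element in Insr, and a GC box and a CCAAT box in Pdk4.
Insr: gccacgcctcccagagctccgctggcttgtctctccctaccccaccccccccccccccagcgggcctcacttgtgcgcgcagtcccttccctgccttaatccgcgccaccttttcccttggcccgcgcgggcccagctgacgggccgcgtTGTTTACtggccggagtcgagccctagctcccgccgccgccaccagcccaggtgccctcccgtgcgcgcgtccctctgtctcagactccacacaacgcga
Hk2: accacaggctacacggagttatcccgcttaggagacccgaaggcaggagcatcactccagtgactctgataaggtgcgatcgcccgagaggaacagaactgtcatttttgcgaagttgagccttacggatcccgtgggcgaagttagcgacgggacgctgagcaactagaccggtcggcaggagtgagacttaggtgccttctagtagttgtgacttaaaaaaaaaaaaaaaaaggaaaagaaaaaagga
Akt2: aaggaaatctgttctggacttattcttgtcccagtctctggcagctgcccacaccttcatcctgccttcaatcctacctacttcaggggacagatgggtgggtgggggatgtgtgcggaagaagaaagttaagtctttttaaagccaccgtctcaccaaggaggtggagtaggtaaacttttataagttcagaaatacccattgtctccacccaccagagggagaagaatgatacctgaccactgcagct
Pdk4: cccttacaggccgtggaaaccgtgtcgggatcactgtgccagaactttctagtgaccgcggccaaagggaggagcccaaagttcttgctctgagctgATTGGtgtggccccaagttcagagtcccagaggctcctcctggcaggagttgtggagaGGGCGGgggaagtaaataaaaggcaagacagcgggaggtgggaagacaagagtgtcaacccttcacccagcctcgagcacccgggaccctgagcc
The FOXO element was searched as TGTTTAC, which FOXO factors, held back by insulin through AKT, are known to bind. These letters stood 100 bases before the Insr start and in none of the other 7 windows. Of 33469 rat windows of this length 3.21% held them. The Pdk4 window held a GC box, searched as GGGCGG, 95 bases before the start. It also held a CCAAT box on the opposite strand 153 bases before it. Of all windows 30.5% had the first of these and 34.0% the second. GC boxes were also found in the windows of Slc2a1, Irs1 and Pik3r1, and a CCAAT box in that of Pik3r1. None of the 8 windows held the E-box CACGTG, found in 5.59% of all windows. The windows of Akt2 and Hk2 held none of the 4 motifs searched. They also differed in composition. Akt2 had 2 CpG dinucleotides and 48.4% G and C, Hk2 had 15 and 49.6%, Pdk4 had 9 and 59.2%, and Insr had 24 and 71.2%, against a median of 5 CpG over all windows. A match is a stretch of letters and not a measured site.

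The comparison of HFT with HF asks whether giving GSPE to dams on the fat-rich diet changed expression in the fat of their sons. None of the 10 genes differed between the groups beyond the spread between animals. Of the 10, 0 passed limma's test at an adjusted p under 0.05, as did 0 of the 21808 probes tested (0%), and 0 of the 10 had an unadjusted p under 0.05, where 515 probes or 2.36% of all did, 247 higher (1.13%) and 268 lower (1.23%) in HFT. The HF and HFT values overlapped for every one of the 10 genes, as they did for each of the 21808 probes tested (0% without overlap). The difference lay below 0 for 8 genes and above 0 for Irs2 and Insr. Of all 21808 probes tested, 12250 lay below 0 and 9558 above. The median was -0.16 log2 units over the 10 genes and -0.016 over all probes tested. Levels are log2 processed signal minus the array's own 75th percentile, and differences are HFT minus HF on that scale. Intervals are 95% intervals of the limma fit, whose adjusted p was 0.999994 for each of the 10.

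**Figure D1:**
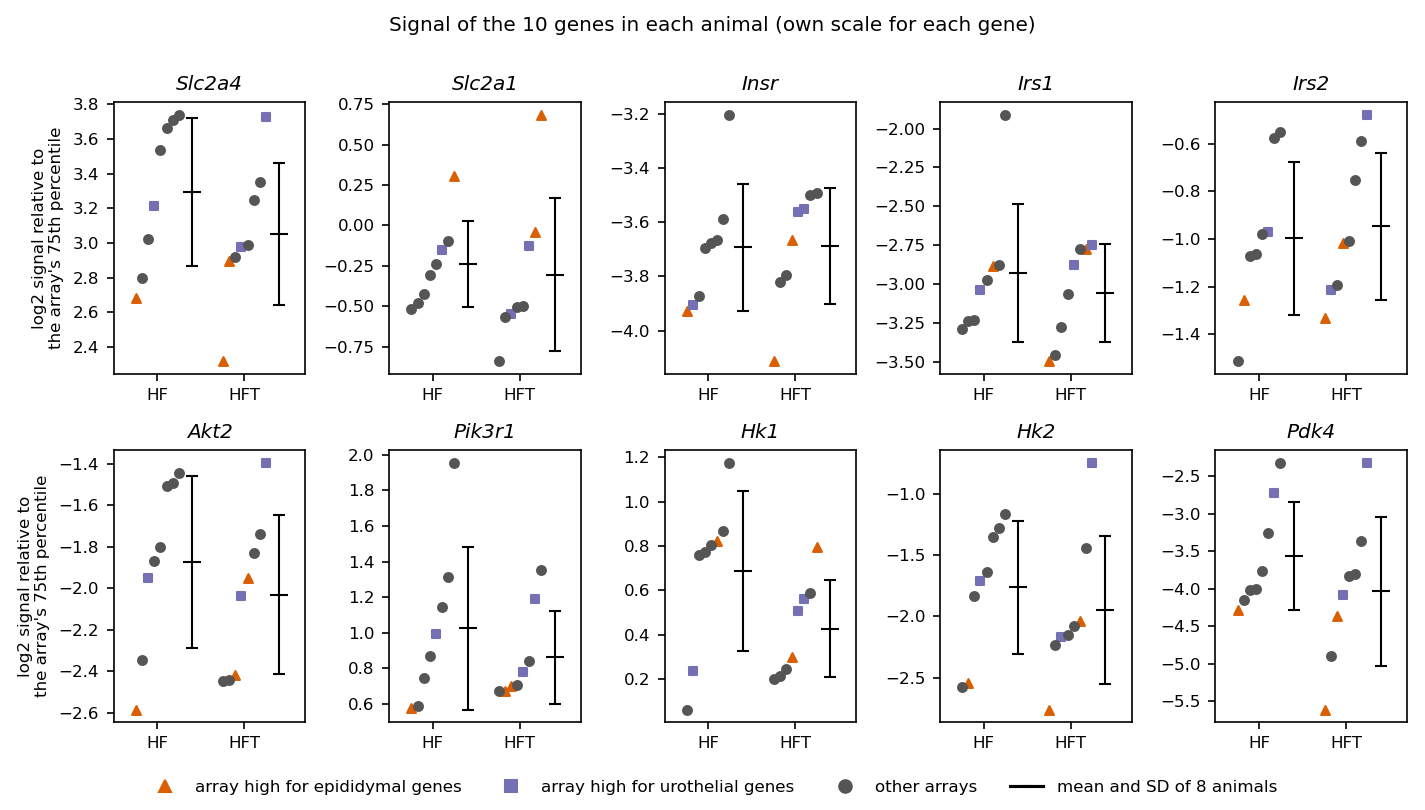
Level of each of the 10 genes in each animal, as log2 signal relative to the array's 75th percentile, with a separate vertical scale per gene; points are ordered by value within a group, colours mark arrays high for epididymal or urothelial genes, and bars give the mean and SD of 8 animals. The HF and HFT points overlap for every gene; Slc2a1 is at its highest on the arrays high for epididymal genes, and HF 10 stands above the other HF animals for Irs1 at -1.91.

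Slc2a4, the insulin-responsive transporter of fat and muscle, had levels of 2.68, 3.37 and 3.74 as the lowest, median and highest HF animal. In HFT they were 2.32, 2.98 and 3.73. The ranges overlapped almost entirely, although 6 of 8 HFT animals lay below the HF mean. The means were 3.30 ± 0.43 (SD, n = 8) in HF and 3.05 ± 0.41 (SD, n = 8) in HFT, a difference of -0.24 (SE 0.20, interval -0.66 to 0.18). That is 0.845 of the HF level, with an interval of 0.631 to 1.13. The difference had the same sign on each slide, at -0.28, -0.33, -0.076 and -0.29. It was -0.29 over the 10 arrays high for neither tissue. The lowest Slc2a4 value of all, 2.32, was that of HFT 28, and the 3 arrays high for epididymal genes read 2.32 to 2.90 against 2.80 to 3.74 on those 10.

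Slc2a1, the transporter of basal uptake that most cell types carry, read -0.52, -0.28 and 0.31 as the lowest, median and highest of HF. In HFT it read -0.84, -0.50 and 0.69. The 2 highest animals, HFT 28 at 0.69 and HF 8 at 0.31, were both arrays high for epididymal genes, and the third such array, HFT 23, read -0.04. On the 10 arrays high for neither tissue Slc2a1 stayed between -0.84 and -0.09. The difference over all animals was -0.067 (SE 0.18, interval -0.46 to 0.32). It was -0.26 (SE 0.11, limma unadjusted p = 0.0381, adjusted p = 0.886) without the arrays high for either tissue. The Slc2a1 probe had 10 spots per array, and all values here leave out spots marked as not uniform or as outliers. With no spots left out the difference was -0.18 (SE 0.13). The level of HFT 28 was not read under that setting. With marked spots left out, the difference was 0.56 on slide 3, which held HFT 28, and -0.40, -0.21 and -0.22 on the other slides.

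Insr, the receptor, varied least among the 10 genes by its brighter probe, spanning 1.88-fold from the lowest to the highest animal. Its second probe spanned 2.53-fold, more than the 2.05-fold of Irs2, 2.17-fold of Hk1 and 2.28-fold of Akt2. The levels that follow are of the brighter probe. HF values were -3.93, -3.69 and -3.20 and HFT values -4.11, -3.61 and -3.49 (lowest, median, highest). HF 10 held the highest value and HFT 28 the lowest. On the second probe HF 9 was highest at -3.91, HF 10 read -4.26 and HFT 28 was again lowest at -5.25. The group means of the brighter probe were -3.69 ± 0.23 (SD, n = 8) and -3.69 ± 0.21 (SD, n = 8). The difference was 0.0050 (SE 0.11, interval -0.23 to 0.24), and -0.093 (SE 0.18) on the second, dimmer Insr probe. Its sign changed with the normalization.

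Irs1, an adaptor that links the receptor to the phosphoinositide kinase, read -3.29, -3.00 and -1.91 in HF and -3.50, -2.97 and -2.75 in HFT. A single animal, HF 10, stood at -1.91, and the next HF animal at -2.88. The second probe showed the same animal at -2.28 and the next at -3.21. The difference was -0.13 (SE 0.18, interval -0.52 to 0.26), and 0.017 when HF 10 was left out. Irs2, the adaptor that fasting raises in liver, read -1.51, -1.02 and -0.55 in HF and -1.33, -1.01 and -0.48 in HFT. Irs2 medians were therefore nearly equal, and the difference was 0.049 (SE 0.15, interval -0.27 to 0.37). On the slides it ranged from -0.61 on slide 3 to 0.64 on slide 1.

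Pik3r1, the regulatory subunit that docks on phosphorylated IRS proteins, read 0.58, 0.93 and 1.96 in HF and 0.67, 0.74 and 1.35 in HFT. HF 10 was again the highest animal. The difference was -0.16 (SE 0.18, interval -0.54 to 0.22), with 6 of 8 HFT animals below the HF mean, and it was -0.028 when HF 10 was left out. Akt2, the AKT isoform needed for insulin-stimulated glucose uptake, read -2.59, -1.84 and -1.44 in HF and -2.45, -1.99 and -1.39 in HFT. Its difference was -0.16 (SE 0.19, interval -0.56 to 0.25). It was -0.37 (SE 0.21, limma unadjusted p = 0.111) on the 10 arrays high for neither tissue and -0.32 (SE 0.17, limma unadjusted p = 0.0794) with array weights. The slides did not share a direction: slide 1 gave 0.79 and slide 3 gave -0.95. Endothelial markers also lay lower in HFT, for 8 of 8 genes with a median of -0.22, and their score ran from -0.19 to 0.36 in HF and from -0.57 to 0.24 in HFT. Akt2 had r = 0.68 with that score over 16 arrays (rho = 0.76, permutation adjusted p = 0.0646 and 0.0582), 0.61 without the 2 farthest animals and 0.77 over the 10 arrays high for neither tissue. The part of these markers in the Akt2 value was not tested.

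Hk1, the hexokinase found in most tissues, came nearest to a group difference. It read 0.06, 0.79 and 1.18 in HF and 0.20, 0.40 and 0.80 in HFT, and 7 of 8 HFT animals lay below the HF mean. HF 14 and HF 35, at 0.06 and 0.24, were the low HF animals and both lay on slide 4. Means were 0.69 ± 0.36 (SD, n = 8) and 0.43 ± 0.22 (SD, n = 8), with a difference of -0.26 (SE 0.14, interval -0.57 to 0.046). The limma unadjusted p was 0.0899 and the two-sided exact permutation p 0.0946. With the urothelial arrays left out the Hk1 difference was -0.36 (limma unadjusted p = 0.0414). It was -0.43 on the 10 arrays high for neither tissue (limma unadjusted p = 0.0443, adjusted p = 0.886). The gap between the groups was thus wider on the arrays high for neither tissue. Slides 1 to 3 gave -0.35, -0.24 and -0.54, and slide 4 gave 0.080. With the slide as a block the SE shrank to 0.089 and the limma unadjusted p to 0.0119, where 736 probes or 3.37% of all were under 0.05 and 0 passed adjustment. Permuting the labels within slides gave a two-sided exact p of 0.0139 for Hk1 over 1296 assignments. The other 9 genes gave exact p-values from 0.227 to 0.968 in that test. Hk1 is therefore 1 of 10 genes tested and did not pass adjustment in any fit. Smooth muscle and pericyte markers lay lower in HFT too, for 9 of 9 genes with a median of -0.59, and their score ran from -0.59 to 4.05 in HF and from -0.60 to 0.92 in HFT. Hk1 had r = 0.52 with that score over 16 arrays (rho = 0.39, permutation adjusted p = 0.225 and 0.483), 0.37 without the 2 farthest animals and 0.64 over the 10 arrays (permutation adjusted p = 0.208). The part of these markers in the Hk1 value was not tested.

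Hk2, the insulin-regulated hexokinase of muscle and fat, read -2.58, -1.68 and -1.17 in HF and -2.76, -2.11 and -0.74 in HFT. The animals spanned 4.06-fold. Of the HFT animals 6 lay below the HF mean, yet the highest Hk2 value of all was that of HFT 24, an array high for urothelial genes. The difference was -0.19 (SE 0.27, interval -0.76 to 0.39).

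Pdk4, which inhibits the pyruvate dehydrogenase complex and is known to rise with fasting and fat oxidation, varied most. Its highest and lowest animals differed 9.80-fold, and its SD over the 16 animals was larger than that of 93.6% of the probes tested. The probe was dim, at a mean signal percentile of 29.1 among those probes. HF values were -4.29, -3.88 and -2.32 and HFT values -5.61, -3.96 and -2.32. The 3 highest animals were HFT 22, HF 12 and HF 35, and the lowest was HFT 28. The difference was -0.47 (SE 0.41, interval -1.33 to 0.39), which moved from -2.21 on slide 3 to 0.81 on slide 1. Slides 2 and 4 gave -0.33 and -0.15, so only slide 1 lay above 0. The medians of the groups were close. The difference was -0.25 when HFT 28 was left out. It depended on the processing, at -0.32 (SE 0.23) with normexp background correction and -0.36 (SE 0.32) in the authors' deposited table. With quantile normalization it was -0.48 (SE 0.44).

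**Figure D2:**
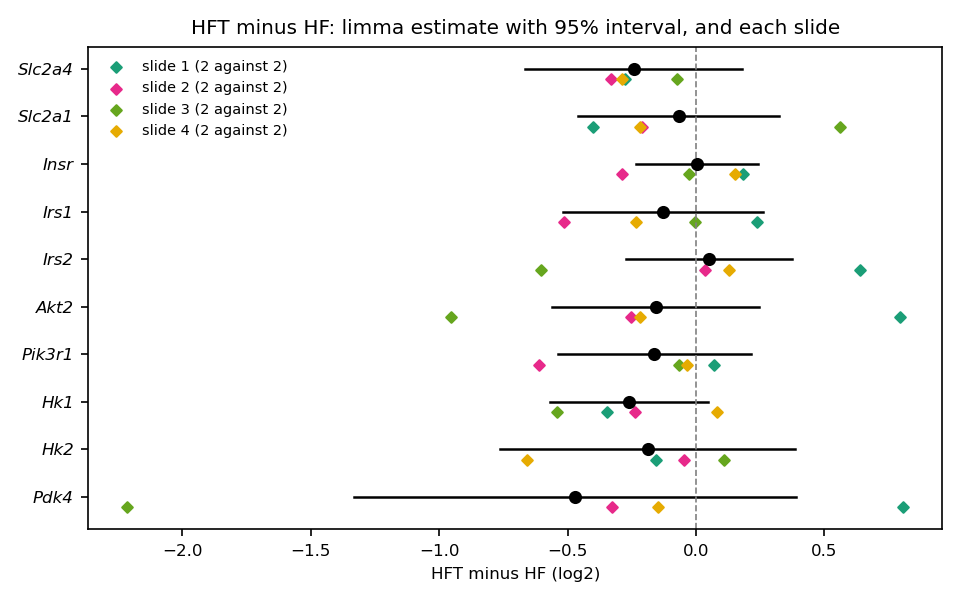
HFT minus HF for the 10 genes in log2 units: black points and lines are limma estimates with 95% intervals over 16 animals, and coloured diamonds the differences within each slide of 2 against 2 animals. All 10 intervals include 0, the slide values of Slc2a4 are all negative, and those of Pdk4 run from -2.21 to 0.81.

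No other gene of the pathway passed either. Of 133 further genes in 13 lists, from receptor ligands to glycogen enzymes, 119 were on the array and 118 were tested. Of these 0 passed the limma adjustment, 50 lay above 0 and 68 below, with a median of -0.025. Over all probes tested 9558 lay above 0 and 12250 below. At an unadjusted p under 0.05 there were 3, or 2.54%, near the background of 2.36%. Grb14, an adaptor that inhibits the receptor, differed by 0.47 (SE 0.20). Socs3, an inhibitor of cytokine and insulin signalling, and Sgk1, a kinase related to AKT, differed by -0.54 (SE 0.16) and -0.40 (SE 0.14). The immediate early list lay lower in HFT too, for 9 of its 9 genes with a median of -0.71, and 5 of the 9 had an unadjusted p under 0.05. Its score ran from -0.47 to 1.64 in HF and from -0.80 to 0.40 in HFT, and its part in the values of Socs3 and Sgk1 was not tested. None of the 3 genes passed adjustment.

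Among isoforms of the 10 genes, the hexokinase Hk3 differed by 0.55 (SE 0.34) but was above background on only 11 arrays. Macrophage markers lay higher in HFT for 11 of 11 genes, with a median of 0.32. Their score ran from -0.60 to 0.41 in HF and from -0.18 to 0.50 in HFT, and their part in the Hk3 value was not tested. Hepatocyte markers lay higher in HFT for 12 of 12 genes tested and erythroid markers for 6 of 6, with medians of 0.67 and 0.32. The hepatocyte score ran from -1.57 to 3.67 in HF and from -1.79 to 3.02 in HFT, and the erythroid score from -0.77 to 0.14 and from -0.37 to 0.46. Their part in the differences of the 10 genes was not tested. Of the transporters Slc2a12 differed by -0.16 (SE 0.092) and Slc2a9 by 0.14 (SE 0.13). Akt1 differed by -0.14 (SE 0.11), and Pdk2 and Pdk1 by -0.19 (SE 0.12) and -0.16 (SE 0.25). Of the kinase subunits and lipid phosphatases Pik3r2 gave -0.15 (SE 0.078) and Inppl1 -0.26 (SE 0.19). Of 10 GLUT4 vesicle trafficking genes, which dock and fuse the stored transporter, the differences stayed between -0.044 and 0.081, with Stx4 at -0.043 (SE 0.053) and Sort1 at 0.081 (SE 0.14). Of 10 glycogen genes 8 lay below 0, with Pygm at -0.29 (SE 0.19). Regulators of Slc2a4 transcription lay below 0 for 5 of 7, with the coactivator Ppargc1a at -0.38 (SE 0.30) and the glucose-sensing factor Mlxipl (ChREBP) at -0.28 (SE 0.25).

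Isoform pairs were read as the offset between 2 probes on the same array. Such an offset mixes probe brightness with RNA amount, so its size is no ratio of transcripts and only its change between animals can be read. The Slc2a4 probe was brighter than the Slc2a1 probe on 16 of 16 arrays, by 3.53 ± 0.56 log2 units in HF and 3.36 ± 0.76 in HFT (SD, n = 8 each). It ran from 4.02 on HF 10 down to 1.63 on HFT 28, a 5.24-fold change, and HF 8 was the next lowest at 2.38. Both low animals were arrays high for epididymal genes. Hk2 was dimmer than Hk1 on all 16 arrays, and this offset ran from -3.36 on HF 8 to -1.30 on HFT 24. The Irs1 probe was likewise below the Irs2 probe on every array, from -2.86 on HFT 36 to -0.85 on HF 10. Pdk4 against Pdk2 ranged widest, from -7.36 on HFT 28 to -4.15 on HF 12. Akt2 against Akt1 hardly moved, from -2.42 to -1.72, and the means were -2.12 ± 0.21 and -2.14 ± 0.24 (SD, n = 8 each). The 2 AKT genes therefore kept their offset within 1.63-fold in all animals, while the transporter and hexokinase pairs did not.

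Although the groups did not separate, the animals did, and some of the 10 genes varied together. Of 45 pairs of genes, 9 passed a permutation test of Pearson's r over the 16 arrays at an adjusted p under 0.05, 8 with a positive and 1 with a negative r. By Spearman's rho 5 passed, all of them among the 9. The share of pairs of other genes on these arrays that would pass was not computed. The counts therefore do not set the 10 genes apart from others. Hk1 was in none of the 9, and its largest r was 0.31 with Irs1. Slc2a4 and Hk2 were the closest pair, with r = 0.91 and rho = 0.88. The permutation p-values were 1e-05, the smallest that 100000 resamples can give, and 3e-05, or 0.00045 and 0.00135 after adjustment over the 45 pairs. Without HF 9 and HFT 28, the animals farthest from the median of Slc2a4, r was 0.89. It was 0.92 within HF, 0.90 within HFT and 0.88 after group and slide means were taken out. Animals with more signal of the transporter had more of the hexokinase, in both groups.

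Irs2 and Akt2 formed the next pair, with r = 0.80 and rho = 0.79 (permutation adjusted p = 0.00517 and 0.0103), and r = 0.76 without HF 9 and HFT 22. Pdk4 joined them, with r = 0.69 to Akt2 (rho = 0.68, permutation adjusted p = 0.0299 and 0.0464) and r = 0.65 to Irs2 (rho = 0.74, adjusted p = 0.0321 and 0.0240). Without HF 8 and HFT 27, the animals farthest from the median of Akt2, the first was 0.76. Without HFT 22 and HF 9, the farthest for Irs2, the second was 0.63. HFT 28, the lowest animal for Pdk4, stayed in both. Pdk4 with Akt2 and with Irs2 gave r of 0.52 and 0.61 within HF and 0.82 and 0.80 within HFT. Over the 10 arrays high for neither tissue they were 0.65 and 0.52. Insr went with Slc2a4 at r = 0.73 (rho = 0.69, permutation adjusted p = 0.0169 and 0.0431), and at 0.68 without HF 9 and HFT 28. Every correlation of Insr is that of its brighter probe, and its second probe was not correlated. With Slc2a4 the other 3 genes gave r of -0.18 for Irs2, 0.17 for Akt2 and 0.19 for Pdk4, none past adjustment.

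The other 3 positive pairs passed by r alone. Insr with Irs1, Pik3r1 and Hk2 gave r = 0.68, 0.67 and 0.65, each with a permutation adjusted p of 0.0321. None of these 3 passed by rho, and without HF 10 and HFT 28 they fell to 0.21, 0.40 and 0.48. Irs1 and Pik3r1 gave r = 0.66 (permutation adjusted p = 0.0576) and 0.16 without those 2 animals. HF 10 was high for all 3 of Insr (by its brighter probe only), Irs1 and Pik3r1, and HFT 28 was lowest for Insr, Irs1 and Hk2. HF 10 also had the lowest 75th percentile of the arrays, 753, and HFT 28 the highest, 1366. That percentile is subtracted from every gene, and its part in these pairs was not tested. Over the 10 arrays high for neither tissue, which hold HF 10 but not HFT 28, Insr gave 0.76 with both Irs1 and Pik3r1 and 0.62 with Hk2. After group and slide means were taken out the 3 were 0.65, 0.77 and 0.59 (permutation adjusted p = 0.0311, 0.00461 and 0.0708). The permutation made no allowance for the means taken out, so p-values of residuals, here and below, are too small. These pairs thus fell without HF 10 and HFT 28, while those with Irs1 and Pik3r1 had r of 0.65 and 0.77 among residuals. The 1 negative pair was Slc2a1 and Irs2, at r = -0.62 (rho = -0.63, permutation adjusted p = 0.0476 and 0.0731). It was -0.54 without HFT 28 and HF 8, -0.52 over the 10 arrays, -0.65 within HF, -0.64 within HFT and -0.67 after group and slide means were taken out (permutation adjusted p = 0.0225). Animals with more Slc2a1 signal had less Irs2, in both groups.

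Over the 10 arrays high for neither tissue, 0 of the 45 pairs passed adjustment, with fewer animals in the test. Slc2a4 with Hk2 was 0.86 there (permutation p = 0.0030, adjusted p = 0.134), Irs2 with Akt2 0.72 and Slc2a4 with Insr 0.66. Slc2a4 and Slc2a1 had the r that changed most of the 45, from r = -0.33 over 16 arrays to 0.71 over those 10, and neither value passed adjustment (permutation adjusted p = 0.527 and 0.165). With group and slide means taken out 9 pairs passed, 8 of them shared with the 9 above, by p-values that are too small as said.

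**Figure D3:**
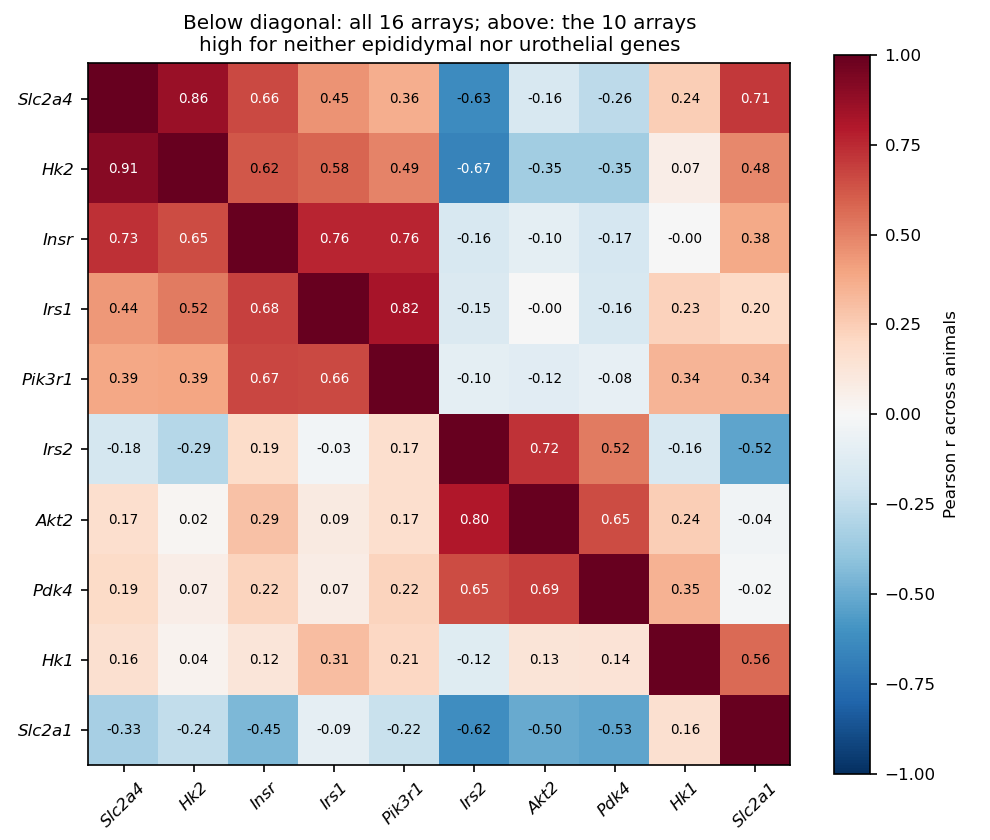
Pearson's r between the 10 genes across animals, over all 16 arrays below the diagonal and over the 10 arrays high for neither epididymal nor urothelial genes above it. Slc2a4, Hk2 and Insr form a red block, as do Irs2, Akt2 and Pdk4, and the Slc2a4 and Slc2a1 cell turns from -0.33 to 0.71.

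Marker lists of 12 other cells and states were set against the 10 genes, 120 relations in all, of which 3 passed adjustment by Pearson's r. Slc2a1 went down with the adipocyte score (r = -0.82, permutation p = 0.00015, adjusted p = 0.018) and up with the epididymal score (r = 0.78, permutation adjusted p = 0.036). By rho these were -0.63 and 0.61, with permutation adjusted p-values of 0.165 and 0.182. Without the 2 farthest animals they were -0.50 and 0.45, and over the 10 arrays high for neither tissue -0.29 and 0.33. Both relations of Slc2a1 were therefore weaker without the arrays high for either tissue. The epididymal arrays were not left out alone. Insr had r = 0.66 with the hepatocyte score, on which HF 10 was highest, and 0.40 without the 2 farthest animals (rho = 0.60, permutation adjusted p = 0.0869 and 0.182), so it did not pass. Over the 10 arrays, which hold HF 10, it was 0.85 (permutation p = 0.00137, adjusted p = 0.0822).

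Pdk4 went with markers of the thermogenic adipocyte, the fat-burning type that carries Ucp1 and Cidea, at r = 0.76 (rho = 0.80, permutation adjusted p = 0.030 and 0.0384). Ucp1 itself ran from -0.80 to 6.75 over the 16 arrays. The r of Pdk4 with the list was 0.68 without the 2 farthest animals and 0.61 over the 10 arrays (permutation p = 0.0582). HF 35 and HFT 22, with the highest thermogenic scores at 1.77 and 0.91, were among the 3 animals of highest Pdk4. Both were also arrays high for urothelial genes, whose part was not tested. Slc2a4 had r = -0.50 with the macrophage score over 16 arrays (permutation adjusted p = 0.252) and -0.90 over the 10 (permutation p = 0.00033, adjusted p = 0.0396). There rho was -0.92 (permutation p = 0.00041), and r was -0.94 without HF 9 and HF 13. Over the same 10 arrays Insr gave r = -0.73 with that score, Slc2a1 -0.70, Hk2 -0.69 and Irs1 -0.59, none past adjustment. Irs2 and Pdk4 went the other way, at 0.39 and 0.062. Macrophage markers also lay higher in HFT, as given above, and their part in the lower Slc2a4 mean of HFT was not tested.

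**Figure D4:**
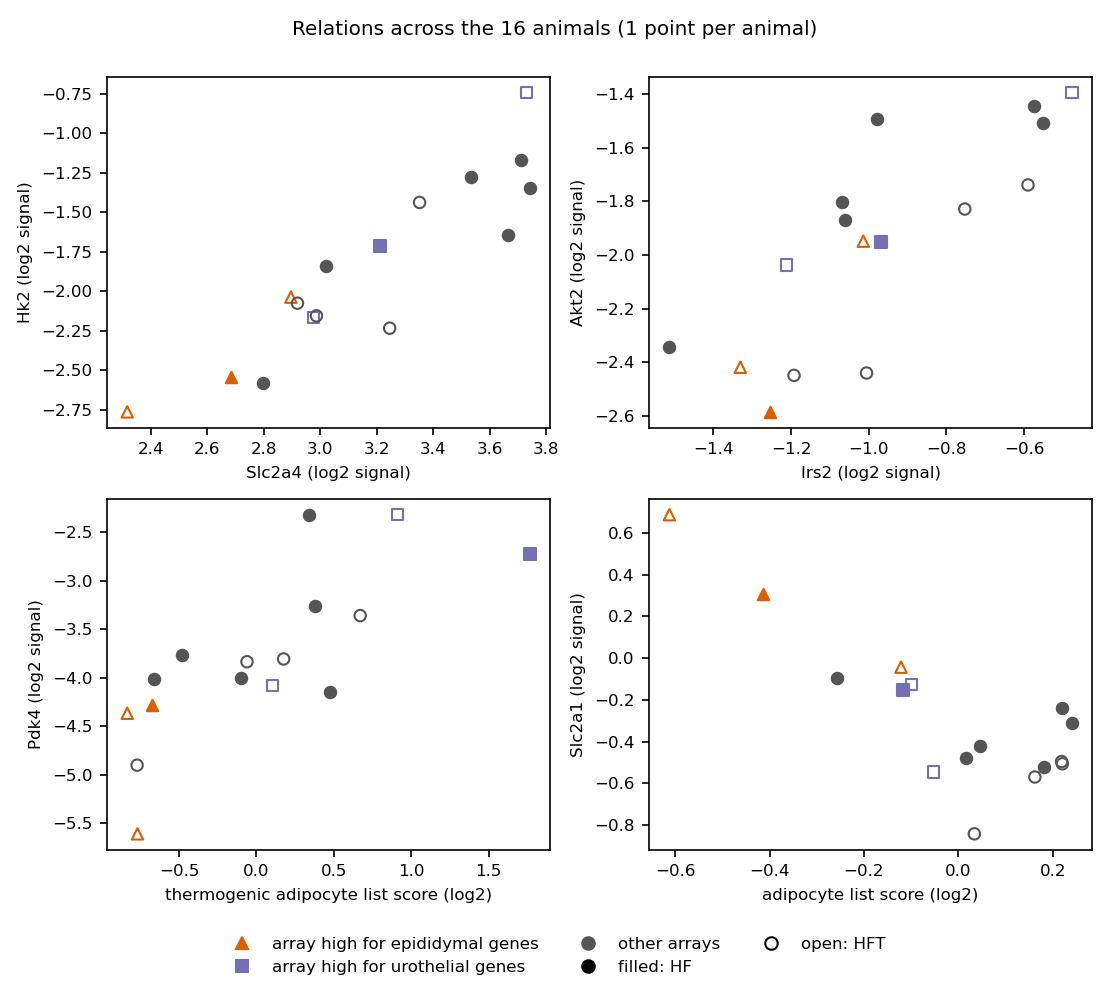
Pairs of measures across the 16 animals, 1 point each: Hk2 against Slc2a4, Akt2 against Irs2, Pdk4 against the thermogenic adipocyte score, and Slc2a1 against the adipocyte score, all in log2 units; open symbols are HFT and colours mark arrays high for epididymal or urothelial genes. HF and HFT points are mixed along each trend, and the 2 highest Slc2a1 points, at 0.69 and 0.31, are epididymal arrays with the lowest adipocyte scores.

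The genes that most resembled each of the 10 were found among 11582 named genes by the smaller of r over 16 and r over the 10 arrays; being picked as highest, they are given as a description. For Slc2a4 they were Gpam, the first enzyme of triglyceride assembly (r = 0.89 and 0.97), the receptor gene Hrh3 (0.89 and 0.88) and Pdha1, a pyruvate dehydrogenase subunit (0.92 and 0.86). For Hk2 they were Mid1ip1, an activator of acetyl-CoA carboxylase (0.92 and 0.96), again Hrh3 (0.86 and 0.86), and Mlxipl (0.85 and 0.90), the sensor of glucose metabolites. Mlxipl stood at r = 0.83 and 0.83 with Slc2a4. The glycogen phosphorylase Pygl (0.90 and 0.85) and the pyruvate dehydrogenase subunit Pdhb (0.85 and 0.88) also stood close to Slc2a4. Mlxipl, Pygl and Pdhb are on the pathway lists and were picked for this mention after their values were seen.

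Akt2 had Sun1, a nuclear envelope protein (r = 0.93 and 0.93), the kinase Rps6ka4 (0.91 and 0.91) and its own isoform Akt1 (0.91 and 0.90). Irs2 had Btbd1 (0.90 and 0.92), Nrbp1 (0.90 and 0.92) and the vault protein Mvp (0.90 and 0.97). Of the pathway genes, picked after their values were seen, Irs2 stood closest to Inpp5k, a lipid phosphatase (0.88 and 0.93), and Pck1, the enzyme of glyceride and glucose synthesis that insulin represses (0.84 and 0.85). Irs2 was also near Irs3, the rodent adaptor of fat (0.83 and 0.82), and Angptl4, a fasting-induced inhibitor of lipoprotein lipase (0.80 and 0.80). Pdk4 had Acadl, an enzyme of fatty acid oxidation (0.87 and 0.85), the transporter Atp13a3 (0.79 and 0.77) and Phyh, a peroxisomal enzyme (0.75 and 0.78).

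For Slc2a1 the nearest were Zfp202 (0.88 and 0.93), Hook2 (0.92 and 0.87) and the growth factor gene Ptn (0.86 and 0.87). For Hk1 they were the methyltransferase gene Prmt1 (0.90 and 0.97), the cell cycle gene Cks1b (0.86 and 0.90) and Trappc3 (0.85 and 0.90). Insr had Tspan15 (0.89 and 0.87), Mtarc1 (0.85 and 0.87) and the complement gene C4a (0.83 and 0.87). Irs1 had Oaz2 (0.81 and 0.83), Bach1 (0.79 and 0.88) and Lrrc14 (0.79 and 0.85), and Pik3r1 had Folh1 (0.80 and 0.83), Xpc (0.77 and 0.82) and Trhde (0.79 and 0.76). None of these 15 genes is on a pathway list.

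Whole pathway lists were set beside the 10 genes in the same way. Slc2a4 had a median r of 0.62 with the 7 regulators of its transcription, 0.57 with 10 glycogen genes and 0.56 with 17 genes of glycolysis, against 0.10 over all named genes. Over the 10 arrays high for neither tissue these medians were 0.35, 0.59 and 0.25, against -0.0088. All 3 stayed above the median of all named genes. Irs2 and Akt2 had median r of 0.58 and 0.61 with the 10 GLUT4 vesicle trafficking genes over 16 arrays, against 0.04 and 0.03 for all named genes. Over the 10 arrays these medians were 0.56 and 0.52, against -0.0086 and -0.080. Slc2a4 itself stood at 0.12 with the trafficking genes and at -0.44 over the 10 arrays. The trafficking genes thus had higher medians with Irs2 and Akt2 than with the transporter they move, a difference that was not tested. Slc2a1 was negative with 11 of the 13 lists, as low as -0.65 with the other kinases of the AKT arm, and its median over all named genes was -0.19. Over the 10 arrays it was negative with 6 of the 13, and its median over all named genes was -0.028. The kinases of the AKT arm stayed low at -0.49, while 6 lists turned positive, among them glycogen from -0.42 to 0.39, the pyruvate dehydrogenase list from -0.50 to 0.25 and the regulators of Slc2a4 from -0.61 to 0.031. The fasting target list turned the other way, from 0.079 to -0.17. The sign of Slc2a1 with these 7 lists thus changed when the arrays high for other tissues were left out. Genes on 1 array share its RNA quality and cell mix, so these medians describe the 16 arrays and carry no p-value.

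**Figure D5:**
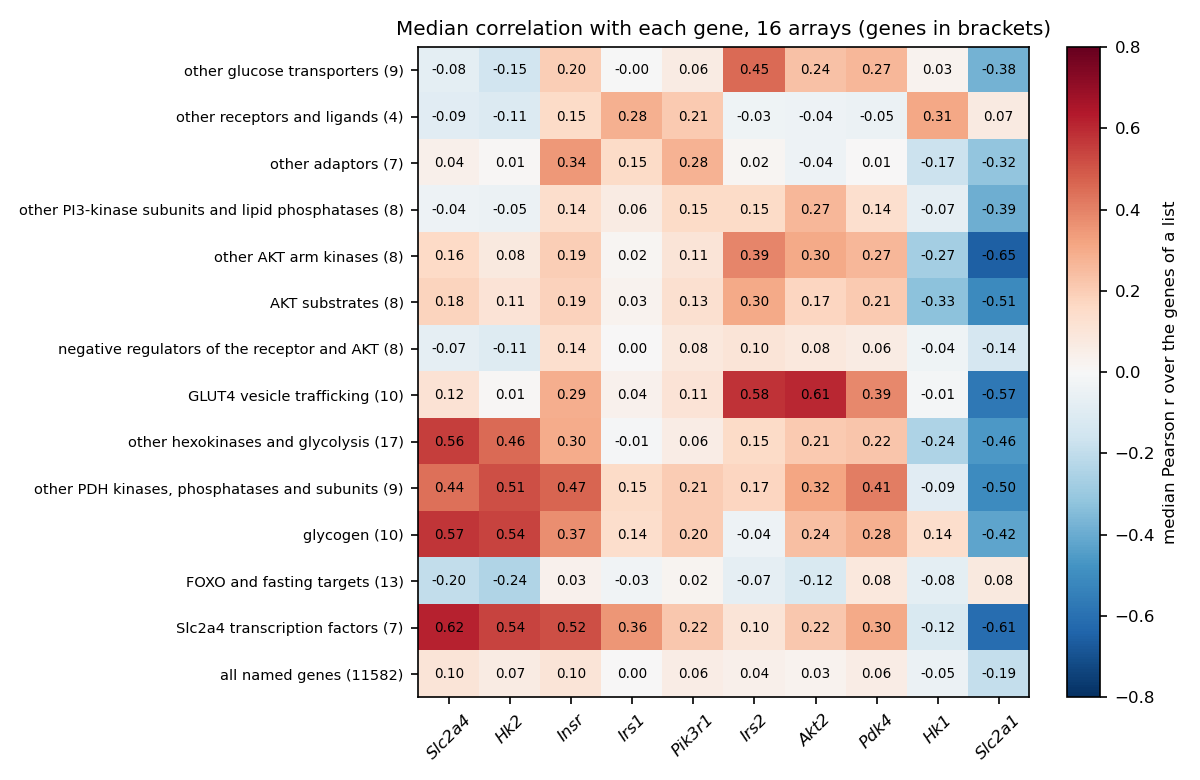
Median Pearson's r, over 16 arrays, between each of the 10 genes (columns) and the genes of each pathway list (rows, number of genes in brackets), with all 11582 named genes in the last row. Slc2a4 and Hk2 are reddest for regulators of Slc2a4 and glycogen genes, Irs2 and Akt2 for vesicle trafficking at 0.58 and 0.61, and the Slc2a1 column is mostly blue.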

How the data were processed

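Per the file headers, the deposited intensities are Agilent Feature Extraction 10.7.3.1 values from 1-colour arrays, corrected within but not between arrays. The marks of 0 or 1 (score) for spots above background, saturated or not uniform are in the same deposited files. A value table that the authors deposited holds log2 signals, with a normalization not stated in the sources used. It served as an alternative, after its 16 columns were each found to match their own array best.

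From the processed intensity, log2 values minus each array's 75th percentile were computed. Spots marked as not uniform or as outliers were left out and replicate spots averaged. Of 30367 probes, 21808 cleared background on 4 or more of the 8 arrays in either group and were tested with limma 3.58.1 (R 4.3.3; data.table version 1.17.8), with Benjamini-Hochberg adjustment over all of them and a threshold of 0.05. Symbols came from RefSeq accessions (GRCr8); 18005 probes were named. The array's own build is older, so no probe coordinates are given.

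Correlations used 100000 permutations (Python 3.11.15, scipy 1.17.1), two-sided, adjusted over 45 gene pairs or 120 relations of genes to marker lists. Residuals from group and slide means were permuted freely, which makes their p-values too small. The gene fits and the correlation test were tested on simulated data. The members, gene lists, tests and alternatives were chosen with earlier results of these data known. Named genes were all 10 members, the 2 of smallest p per pathway list (not all printed) and the 3 most alike per member; genes outside that rule are said to be picked after their values were seen.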

Additional observations from a re-analysis of the deposited data

Results flagged for a closer look

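In 34 groups of 8 values (the 12 probes and 5 isoform pairs, in HF and in HFT), 4 had an animal at one end that stood far from the rest, with a gap to its neighbour of more than 0.526 of the whole range. Chance gives this in about 1 of 20 groups. Insr was highest on HF 10, at -3.20 against -3.59 for the next HF animal. The second Insr probe did not repeat this, with HF 9 highest at -3.91 and HF 10 at -4.26. Irs1 was highest on HF 10, at -1.91 against -2.88, and its second probe gave -2.28 against -3.21. HF 10 also scored 3.67 for hepatocyte genes and had the lowest 75th percentile of the arrays, 753. The part of either in its Insr and Irs1 values was not tested. The fourth was the offset of Slc2a4 against Slc2a1 in HFT, lowest on HFT 28 at 1.63 against 2.94 for the next animal, and HFT 28 scored 7.22 for epididymal genes, whose part was not tested.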

How the results depend on the processing

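Of 290 values of the 10 differences under other processing or with animals left out, 270 kept their direction, 20 turned it and 0 passed the limma adjustment, with a smallest adjusted p of 0.857. Slc2a4, Akt2, Pik3r1, Hk1, Hk2 and Pdk4 lay below 0 in every one. The difference of Insr turned to -0.070 with normexp correction, -0.0081 with quantile normalization, -0.016 in the authors' deposited table, -0.0076 with array weights, -0.069 without the urothelial arrays and -0.034 without these and the epididymal ones. Irs2 turned to -0.0056 with array weights. Leaving out 1 animal at a time gave -0.029 to 0.075 for Insr, -0.024 to 0.11 for Irs2, -0.21 to 0.012 for Slc2a1 and -0.18 to 0.017 for Irs1, with 7, 3, 2 and 1 turned signs. The ranges were -0.34 to -0.14 for Slc2a4, -0.35 to -0.19 for Hk1, -0.36 to -0.072 for Hk2, -0.26 to -0.096 for Akt2, -0.23 to -0.028 for Pik3r1 and -0.72 to -0.25 for Pdk4. The cause was not tested. The unadjusted limma p of Hk1 ran from 0.0142 to 0.185 over those fits. With no spots left out for marks Slc2a1 differed by -0.18. Its correlations and its offset to Slc2a4 were not computed under that setting. Over all probes 1 passed adjustment without the arrays high for epididymal genes: Acot5, named after its value was seen, at -4.38 (limma adjusted p = 0.0131). Without the arrays high for either tissue 0 gene pairs passed instead of 9, over 10 arrays instead of 16, and with quantile normalization 12 passed, 8 of them shared. No paired analysis was possible because the groups share no animal numbers. Normexp was run on median spot intensities. With 8 animals a group the unadjusted 95% intervals of the 10 differences reached 0.24 to 0.86 log2 units to either side of the estimate.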
